A study of Mus musculus with 8 samples.

Results

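The enzymes that write, copy and remove DNA methylation were examined in the transcriptomes of mouse germline stem (GS) cells. The group comprised 9 genes chosen by name, Dnmt1, Uhrf1, Dnmt3a, Dnmt3b, Dnmt3l, Tet1, Tet2, Tet3 and Tdg, and all of them were found among the 31010 genes of the deposited table. GS cells are cultured spermatogonia with stem cell activity whose growth depends on GDNF and FGF2. All 8 lines were derived from CD9-selected spermatogonia of mature testes and grown on embryonic fibroblasts. Before RNA collection the cells were plated on gelatin to remove the fibroblasts, and how many remained is not stated. There were 4 control-F1 lines (29, 37, 44 and 45) from C57BL/6 (B6) mice born after natural mating. The 4 ICSI-F1 lines (11, 17, 20 and 21) were from B6 mice born after intracytoplasmic sperm injection, in which a sperm is placed directly into the oocyte. The labels gave every line the genotype wild type and gave ICSI as the only treatment, and the medium of all lines contained ascorbic acid. According to the paper, the sperm for ICSI came from B6 mice with a ubiquitously expressed Egfp transgene. Whether any line carried the transgene was not examined. Each sample was a single line, and the labels do not state whether the lines of a group came from different mice or litters, so that every p-value below measures the spread between these lines.

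Cytosine methylation at CpG sites is established by the de novo methyltransferases Dnmt3a and Dnmt3b, which in male germ cells are stimulated by Dnmt3l, a relative without catalytic activity of its own. After DNA replication, Uhrf1 recognizes hemimethylated CpG sites and recruits Dnmt1, which copies the mark onto the new strand. The Tet enzymes oxidize 5-methylcytosine to 5-hydroxymethylcytosine and further products, and Tdg, a thymine DNA glycosylase, excises the most oxidized forms so that base excision repair restores an unmodified cytosine. Ascorbic acid is a known enhancer of Tet activity. In the male germline, methylation is erased in primordial germ cells and laid down again before birth, and spermatogonia carry the paternal imprints that Dnmt1 and Uhrf1 must keep through each division.

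Values were FPKM, which are per length of gene, and 24712380 to 44284526 reads per library were recovered from them. Sample titles were written in 2 ways, and each way of writing is referred to as a label form. Controls 29 and 37 and ICSI-F1 lines 11 and 17 belonged to form 1, whereas controls 44 and 45 and ICSI-F1 lines 20 and 21 belonged to form 2, whose labels give the group by title and treatment alone. The submitters' notes named different versions of the alignment and counting tools for the forms, although the study's methods describe a single set of versions, and all libraries of form 2 (at least 32360921 reads) were deeper than all of form 1 (at most 26667417 reads). Title style, tool version and depth cannot be told apart in these samples. Form is therefore reported as a possible technical batch, and each group had 2 lines in each form. The germ cell genes Dazl (337 FPKM), Ddx4 (224 FPKM) and Sohlh1 (120.0 FPKM) were the most abundant spermatogonial markers. Of the fibroblast genes, Fn1 averaged 95.3, Sparc 88.0 and Col1a1 65.0 FPKM, and the summed level of 23 fibroblast genes ranged from 260 to 1121 FPKM in control lines and from 335 to 662 FPKM in ICSI lines, with 21 of the 22 tested at a lower mean in ICSI lines and 0 called. The Sertoli and Leydig cell genes summed to 4.46 to 7.38 FPKM, with Cyp17a1 listed at 0 in every line. In bulk RNA, fewer cells of a type and less RNA per cell cannot be told apart.

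The maintenance genes were the most abundant of the 9 genes and the Tet1 and Tet2 genes the least. Mean FPKM over the 8 lines was 113 ± 18.9 (SD, n = 8) for Uhrf1 and 96.8 ± 13.7 for Dnmt1, followed by Dnmt3b (13.9 ± 2.69), Dnmt3a (8.44 ± 0.851), Tet3 (5.06 ± 2.33), Tdg (3.45 ± 0.595), Dnmt3l (3.36 ± 1.88), Tet1 (0.375 ± 0.0464) and Tet2 (0.327 ± 0.142). Uhrf1 and Dnmt1 thus stood above 99.0% and 98.7% of the genes with any reads. The comparisons that follow use FPKM on the joined length of all annotated exons. In all 8 lines Dnmt1 exceeded Dnmt3b, by 7.03-fold as a geometric mean, and Dnmt3l exceeded Tet1 by 7.67-fold. On that length, Dnmt3b exceeded Dnmt3a by 1.63-fold and Dnmt3a exceeded Tet3 by 1.87-fold, also in all 8 lines. Each of these had an exact two-sided sign-flip permutation p of 0.00781, the smallest that n = 8 lines allow (adjusted p = 0.0156 over the 8 neighbouring pairs).

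The other neighbours in this order did not differ beyond their spread. Uhrf1 exceeded Dnmt1 in 4 of 8 lines (adjusted p = 0.167 in the exact permutation test), Tet3 exceeded Tdg in 5 of 8 (0.163), Tdg exceeded Dnmt3l in 4 of 8 (0.523) and Tet1 exceeded Tet2 in 5 of 8 (0.295). Among the Tet genes, Tet3 carried most of the signal in every line, 74.1% to 91.2% of the summed FPKM. FPKM was computed on the joined length of all annotated exons, which is 16695 bases for Tet3 against 5944 bases for its principal transcript. Scaled to the principal transcript, the means of Dnmt3b, Dnmt3a and Tet3 were 16.4, 14.5 and 14.2 FPKM. The folds between these genes therefore depend on the length used. The orders of Tdg and Dnmt3l and of Tet1 and Tet2 changed places. The tests between neighbours within each line were not repeated on the principal transcript.

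**Figure D1:**
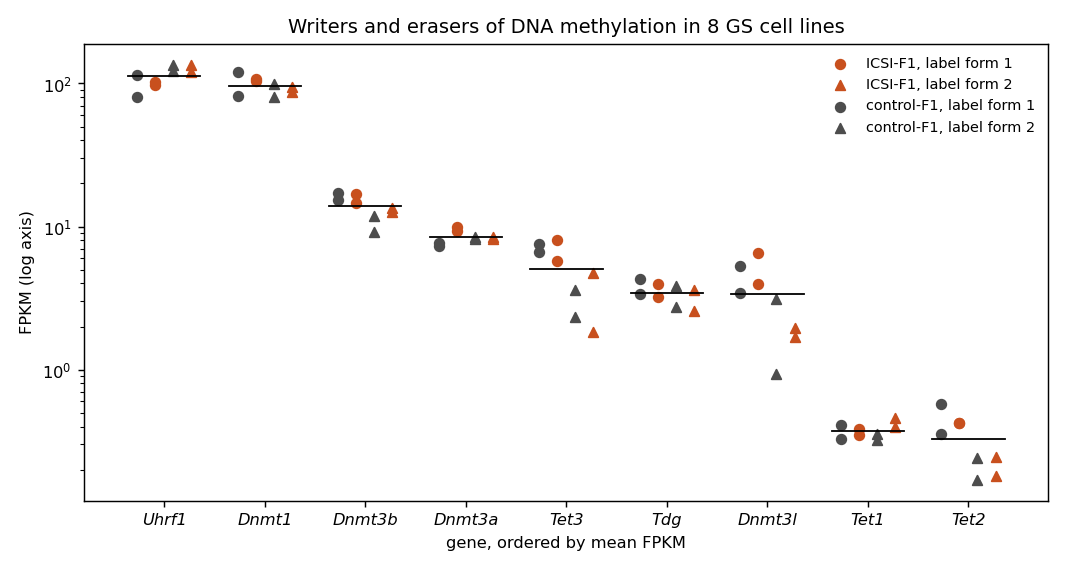
FPKM of the 9 genes in each GS cell line on a log axis, with genes ordered by mean FPKM; grey points are control-F1 and orange points ICSI-F1 lines, circles are label form 1, triangles label form 2, and the horizontal bars are means of 8 lines. Control and ICSI lines overlapped for every gene, whereas the triangles lay below all circles for Dnmt3b, Tet3, Dnmt3l and Tet2 and above them for Uhrf1.

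The comparison of ICSI-F1 with control-F1 lines asked whether conception by ICSI left a difference in expression in the germline of the offspring. None of the 9 genes differed between the groups. By limma on log2(FPKM + 1), 0 of 12000 genes tested (percent called, 0%) and 0 of the 7 writers and erasers that averaged 1 FPKM or more had an adjusted p under 0.05, and an unadjusted p under 0.05 was found for 55 genes and for 0 of these 7. By limma-voom on the recovered reads, 0 genes were called and 50 had an unadjusted p under 0.05. Tet1 and Tet2 were below the minimum and were tested only in an added limma-voom fit of 16084 genes, in which 0 genes were called and 99 had an unadjusted p under 0.05. Of the 7 genes, 5 had a higher and 2 a lower mean log2 value in ICSI lines, with a median of 0.060, against -0.013 over all genes tested. No member had groups that did not overlap, which was the case for 0.442% of all genes. With the fibroblast level as a covariate, 0 genes were called and 60 had an unadjusted p under 0.05.

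Dnmt1 (ENSMUSG00000004099, mm10 chr9:20907209-20959888, minus strand), the maintenance methyltransferase, was at 81.6, 120.0, 80.4 and 99.1 FPKM in control lines 29, 37, 44 and 45. ICSI lines 11, 17, 20 and 21 were at 105, 107, 94.0 and 87.5 FPKM. All 4 ICSI values lay inside the control range. The log2 change was 0.060 ± 0.15 (SE, 95% interval -0.27 to 0.39). Its recruiter Uhrf1 (ENSMUSG00000001228, chr17:56303321-56323486, plus strand) was at 79.9, 115, 123 and 134 FPKM in the same order of control lines. The ICSI lines were at 97.9, 102, 135 and 120.0 FPKM, so that the lowest value was a control and the highest an ICSI line. The log2 change of Uhrf1 was 0.026 ± 0.18 (95% interval -0.37 to 0.42).

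Dnmt3a (ENSMUSG00000020661, chr12:3806007-3914443, plus strand), a de novo methyltransferase, varied least among the genes tested here, with a coefficient of variation of 10.1% over the 8 lines. Control lines 29, 37, 44 and 45 had 7.35, 7.73, 8.12 and 8.42 FPKM, and ICSI lines 11, 17, 20 and 21 had 9.99, 9.33, 8.40 and 8.14 FPKM. The 2 highest values were the ICSI lines of form 1, and the other ICSI lines lay within the control range. The log2 change was 0.16 ± 0.11 (95% interval -0.079 to 0.40), with p = 0.0857 in an exact two-sided permutation test, the smallest p among the 9 genes. Within form 1 the means were 9.66 FPKM in ICSI and 7.54 FPKM in control lines, and within form 2 they were 8.27 FPKM in both. The interaction of group and form for Dnmt3a was -0.32 ± 0.18 on the log2 scale and did not pass (unadjusted p = 0.111 and adjusted p = 1.00, limma). Over all genes, 0 interactions were called by limma and 147 had an unadjusted p under 0.05, and limma-voom gave 0 and 110.

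Dnmt3b (ENSMUSG00000027478, chr2:153649450-153687730, plus strand), the other de novo enzyme, had 15.4, 17.1, 9.16 and 11.9 FPKM in control and 17.0, 14.5, 12.6 and 13.6 FPKM in ICSI lines. The ICSI lines lay within the control range, and the log2 change was 0.13 ± 0.18 (95% interval -0.29 to 0.54). Dnmt3c, a rodent copy of Dnmt3b, was at 0.13 FPKM on average, and reads that fit either gene are uncertain. The stimulatory factor Dnmt3l (ENSMUSG00000000730, chr10:78041947-78063622, plus strand) had 3.44, 5.34, 3.14 and 0.925 FPKM in control and 3.96, 6.48, 1.69 and 1.94 FPKM in ICSI lines. It was the most variable of the genes tested here, with an SD of log2(FPKM + 1) above that of 97.0% of the 12000 genes. Its change of 0.097 ± 0.41 therefore had a wide 95% interval, from -0.83 to 1.02.

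The erasers gave a similar picture. Tet3 (ENSMUSG00000034832, chr6:83362373-83459084, minus strand) had 6.66, 7.56, 2.34 and 3.60 FPKM in control and 8.03, 5.75, 1.83 and 4.71 FPKM in ICSI lines. The highest and the lowest values were both ICSI lines, and the log2 change was -0.0085 ± 0.39 (95% interval -0.89 to 0.87). With form as a covariate, the same change had a 95% interval of -0.51 to 0.50. Tdg (ENSMUSG00000034674, chr10:82629828-82650799, plus strand) had 3.37, 4.28, 2.74 and 3.84 FPKM in control and 4.00, 3.21, 2.58 and 3.59 FPKM in ICSI lines. The ranges overlapped almost completely, and the log2 change was -0.069 ± 0.15 (95% interval -0.42 to 0.28). Exons of Tdg share 367 bases with Glt8d2 on the other strand (0.319 to 0.645 FPKM), and a processed pseudogene of Tdg is annotated, so reads from these loci may enter its value.

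Tet1 (ENSMUSG00000047146, chr10:62804570-62908996, minus strand) had 0.325, 0.407, 0.354 and 0.324 FPKM in control and 0.349, 0.383, 0.460 and 0.400 FPKM in ICSI lines, from 133 to 221 reads per library. Tet2 (ENSMUSG00000040943, chr3:133463679-133545139, minus strand) had 0.573, 0.356, 0.243 and 0.169 FPKM in control and 0.426, 0.423, 0.180 and 0.244 FPKM in ICSI lines, from at least 94 reads per library. Both genes were therefore detected in every line, at a low level. In the limma-voom fit, the log2 change was 0.19 ± 0.20 for Tet1 (95% interval -0.25 to 0.63) and 0.028 ± 0.43 for Tet2 (-0.92 to 0.98). Over the 9 genes, the exact permutation p of the group difference ranged from 0.0857 to 0.971.

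**Figure D2:**
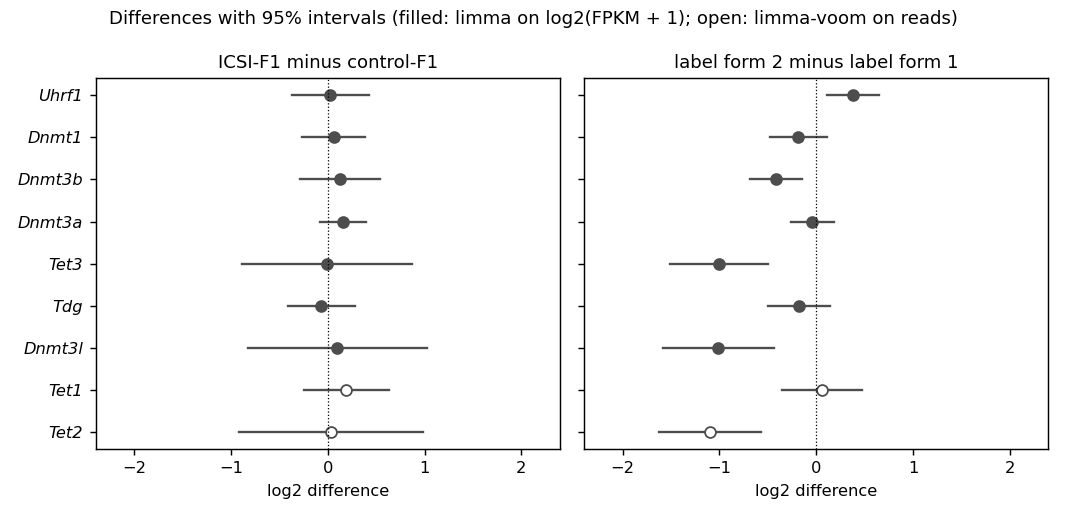
Log2 differences of the 9 genes with 95% intervals, ICSI-F1 minus control-F1 on the left and label form 2 minus label form 1 on the right; filled points are limma on log2(FPKM + 1) and open points are limma-voom on recovered reads for Tet1 and Tet2. All 9 intervals on the left include 0, while on the right those of Tet3 (-1.002), Dnmt3l (-1.01), Dnmt3b (-0.42), Tet2 (-1.10) and Uhrf1 (0.38) do not. The intervals are not adjusted for the number of genes, and Uhrf1 did not pass after adjustment. Between forms, 4248 of 12000 genes had an unadjusted p under 0.05 by limma and 5080 of 16084 by limma-voom.

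The label forms, in contrast, separated several of these genes. With the group as covariate, 3 of the 7 genes tested by limma were called, all of them lower in form 2. In this comparison 16.0% of all genes tested were called, 5.76% lower and 10.2% higher in form 2, and the median log2 difference was -0.18 over the 7 genes against 0.028 over all genes. Tet3 fell from 6.999 ± 1.01 FPKM (SD, n = 4) in form 1 to 3.12 ± 1.29 FPKM in form 2, a 2.24-fold difference (log2 difference -1.002 ± 0.22, adjusted p = 0.0243). Dnmt3l fell from 4.80 ± 1.38 to 1.92 ± 0.918 FPKM, a 2.50-fold difference (log2 difference -1.01 ± 0.25, adjusted p = 0.0319). Dnmt3b fell from 16.0 ± 1.25 to 11.8 ± 1.90 FPKM, a 1.35-fold difference (log2 difference -0.42 ± 0.12, adjusted p = 0.0469). The direction was the same in each group, from 7.11 to 2.97 FPKM for Tet3 in control and from 6.89 to 3.27 FPKM in ICSI lines, from 4.39 to 2.03 and from 5.22 to 1.81 FPKM for Dnmt3l, and from 16.2 to 10.5 and from 15.7 to 13.1 FPKM for Dnmt3b.

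Tet2, tested in the added limma-voom fit, was also lower in form 2, at 0.209 ± 0.0399 against 0.445 ± 0.0915 FPKM (log2 difference -1.10 ± 0.24, adjusted p = 0.0261), where 11.8% of 16084 genes were called and 4.94% were lower. Uhrf1 was at 98.8 ± 14.5 FPKM in form 1 and 128 ± 7.70 FPKM in form 2, and its log2 difference of 0.38 ± 0.12 did not pass (adjusted p = 0.0626, limma). Dnmt1 (-0.18 ± 0.13, adjusted p = 0.336), Tdg (-0.18 ± 0.14, 0.398), Dnmt3a (-0.041 ± 0.097, 0.790) and, by limma-voom, Tet1 (0.060 ± 0.18, 0.848) did not pass either. The forms did not overlap for Uhrf1, Dnmt3b, Dnmt3l, Tet3 and Tet2, and this was the case for 26.8% of the genes tested by limma.

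These calls depended on the processing and on single lines. Dnmt3b was not called by limma-voom on the recovered reads (-0.44, adjusted p = 0.0502), and with no filter on low genes none of the 3 was called by limma (adjusted p = 0.0548 for Tet3, 0.0747 for Dnmt3l and 0.0800 for Dnmt3b). Leaving out ICSI line 21 kept all 3 calls, but without control line 37, ICSI line 11 or ICSI line 17 none of the 7 genes was called. Tet3 alone was called without control line 45 or ICSI line 20, and Dnmt3l alone without control line 29 or control line 44. In the fits that lost the call, the adjusted p of Tet3 was 0.0523 without control line 29, 0.0770 without 37, 0.0673 without 44, 0.0824 without ICSI line 11 and 0.0542 without 17. That of Dnmt3l was 0.0973 without control line 37, 0.0596 without 45, 0.0727 without ICSI line 11, 0.0907 without 17 and 0.0720 without 20, and that of Dnmt3b was 0.0662 to 0.133 in the 7 fits that lost it. The log2 differences kept their sign throughout, at -1.21 to -0.81 for Tet3, -1.25 to -0.81 for Dnmt3l and -0.49 to -0.31 for Dnmt3b. The number of all genes called also varied, from 210 (1.75%) to 2691 (22.4%) leaving out a line, and it was 5.24% without a filter.

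Genes of some other groups also differed between the forms. Over all genes tested, limma called 16.0%, with 10.2% higher and 5.76% lower in form 2. The summed level of 20 genes of undifferentiated spermatogonia was 1145 to 1333 FPKM in form 1 and 1395 to 1640 FPKM in form 2, without overlap, with 9 of the genes called higher and 2 lower. The 13 genes of differentiation and meiosis summed to 388 to 461 FPKM in form 1 and 478 to 514 FPKM in form 2. Sycp3 (80.6 ± 12.1 against 126 ± 11.0 FPKM) and Sycp1 (52.0 ± 7.94 against 76.4 ± 8.86 FPKM) were the 2 genes called higher. Kit was called lower (7.73 ± 1.57 against 4.08 ± 1.25 FPKM), and the median log2 difference of the 11 genes tested was -0.092. Of the Sertoli and Leydig cell genes 3 were tested, and Sox9 was higher (1.03 ± 0.205 against 3.34 ± 1.57 FPKM) and Wt1 lower in form 2 (2.93 ± 0.510 against 1.23 ± 0.294 FPKM). The part of these differences, of depth and of the tool versions in the differences of Tet3, Dnmt3l and Dnmt3b was not tested. The fibroblast genes summed to 325 to 1121 FPKM in form 1 and 260 to 954 FPKM in form 2, and 0 of the 22 tested differed between forms by limma (0 of 22 also between ICSI and control). With the fibroblast level as a covariate the log2 differences were -1.02 for Tet3 (adjusted p = 0.00772), -1.005 for Dnmt3l (0.0201) and -0.42 for Dnmt3b (0.0225), and Uhrf1 also passed (0.37, adjusted p = 0.0364). That fit called 27.7% of all genes tested, against 16.0% without the covariate. Genes of proliferation, of interest because Uhrf1 and Dnmt1 act at replication, summed to 848 to 1056 FPKM in form 1 and 885 to 1085 FPKM in form 2. Of these 17 genes, limma called 1 higher and 1 lower in form 2. Mcm4 was higher (108 ± 19.1 against 157 ± 10.7 FPKM, adjusted p = 0.0227). Mki67 was lower (51.6 ± 10.3 against 28.3 ± 8.02 FPKM, log2 difference -0.87 ± 0.23, adjusted p = 0.0359).

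The promoter sequences of the 4 genes called lower in form 2, 3 by limma and Tet2 in the added limma-voom fit, are given for comparison, with that of Uhrf1 as the gene whose levels were higher there without passing the test. The windows run from 250 bases before to 50 bases after a RefSeq transcription start (GRCm38.p6, the assembly of mm10), 5′ to 3′ on the strand of the gene, with CG dinucleotides, the substrate of these enzymes, in capitals. Where RefSeq lists several starts, the window with the most CG is shown, which favours high counts, and gene-level values do not tell which start was used. The only window listed for Tet3 is at a start 17406 bases from the gene start in GENCODE. That distance was 21672 bases for Tet1, 7265 for the Dnmt1 window chosen and at most 1153 for the other genes. They lie at chr2:153649199-153649498 (Dnmt3b, plus strand), chr6:83441629-83441928 (Tet3, minus strand), chr10:78042037-78042336 (Dnmt3l, plus strand), chr3:133544341-133544640 (Tet2, minus strand) and chr17:56304063-56304362 (Uhrf1, plus strand).
Dnmt3b: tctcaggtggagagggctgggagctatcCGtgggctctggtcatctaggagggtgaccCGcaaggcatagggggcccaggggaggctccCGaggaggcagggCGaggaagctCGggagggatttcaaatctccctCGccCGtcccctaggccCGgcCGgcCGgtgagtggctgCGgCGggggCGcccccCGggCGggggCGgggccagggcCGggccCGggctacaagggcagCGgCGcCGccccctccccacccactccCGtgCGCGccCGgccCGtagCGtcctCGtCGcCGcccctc
Tet3: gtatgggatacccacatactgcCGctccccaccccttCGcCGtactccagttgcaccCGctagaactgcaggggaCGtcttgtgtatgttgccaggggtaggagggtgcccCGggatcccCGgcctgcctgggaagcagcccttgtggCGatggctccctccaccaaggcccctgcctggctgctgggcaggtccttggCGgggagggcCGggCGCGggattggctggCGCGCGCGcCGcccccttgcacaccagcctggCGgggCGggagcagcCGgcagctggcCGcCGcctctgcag
Dnmt3l: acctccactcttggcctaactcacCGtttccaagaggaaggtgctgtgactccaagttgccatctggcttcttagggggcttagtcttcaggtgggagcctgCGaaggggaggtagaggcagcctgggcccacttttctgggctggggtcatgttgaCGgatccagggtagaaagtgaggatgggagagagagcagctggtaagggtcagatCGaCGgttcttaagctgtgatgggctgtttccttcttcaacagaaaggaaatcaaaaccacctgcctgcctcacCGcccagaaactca
Tet2: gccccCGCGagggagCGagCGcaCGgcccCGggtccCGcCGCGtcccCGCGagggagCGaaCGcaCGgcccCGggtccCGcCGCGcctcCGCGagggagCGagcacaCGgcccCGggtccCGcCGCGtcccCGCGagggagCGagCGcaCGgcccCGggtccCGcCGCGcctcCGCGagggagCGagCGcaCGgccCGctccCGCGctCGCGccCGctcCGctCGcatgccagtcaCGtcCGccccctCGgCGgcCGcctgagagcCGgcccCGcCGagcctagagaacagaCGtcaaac
Uhrf1: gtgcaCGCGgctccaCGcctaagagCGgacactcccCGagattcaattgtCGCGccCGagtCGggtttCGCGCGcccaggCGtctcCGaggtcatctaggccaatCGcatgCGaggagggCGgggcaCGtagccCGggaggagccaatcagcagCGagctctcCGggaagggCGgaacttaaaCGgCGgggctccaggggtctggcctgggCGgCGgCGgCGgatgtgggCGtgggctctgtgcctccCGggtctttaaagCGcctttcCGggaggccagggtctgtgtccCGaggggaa
The Dnmt3b window held 30 CG, that of Tet3 22, that of Tet2 57 (more than 99.8% of all windows) and that of Uhrf1 33, against a median of 7 over 32851 windows of the same length. Dnmt3l held 6, and its 2 other listed windows held 4 and 3. The windows shown for the genes lower in form 2 were thus not all rich in CG. A link between promoter sequence and form was not tested. Of the genes not called by form, Dnmt1 held 33 (12 and 2 in its other windows), Dnmt3a 47, Tdg 26 and Tet1 17. The GC box GGGCGG, searched on both strands, was found 4 times in the Dnmt3b window, 2 times in that of Tet3, 1 time each in those of Dnmt3l and Tet2 and 3 times in that of Uhrf1, and 35.7% of all windows held it. The E2F-type motif TTCCCGC, also searched on both strands, was in none of the 9 windows chosen, was found 1 time in the other Uhrf1 window and was in 4.60% of all windows.

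Ratios within a line do not depend on the scaling between libraries. The log2 ratio of Dnmt1 to Uhrf1 was 0.030 and 0.060 in control lines 29 and 37, 0.096 and 0.069 in ICSI lines 11 and 17, -0.61 and -0.43 in control lines 44 and 45 and -0.52 and -0.46 in ICSI lines 20 and 21. All 4 lines of form 1 thus had slightly more Dnmt1 than Uhrf1 and all 4 of form 2 had less, with a difference of -0.57 between the forms. The log2 ratio of the summed methyltransferases Dnmt1, Dnmt3a and Dnmt3b to the summed Tet genes was 3.79 to 4.32 in form 1 and 4.35 to 5.54 in form 2. Tet1 made up 3.97% to 5.84% of the summed Tet FPKM in form 1 and 7.47% to 18.6% in form 2, while the level of Tet1 itself overlapped between the forms. For each of these 3 ratios the forms did not overlap and the exact two-sided permutation p was 0.0286, the smallest the design allows, but none passed after adjustment over the 8 tests of ratios (adjusted p = 0.0762). Tet3 made up 74.1% to 91.2% of the summed Tet FPKM, so the last 2 ratios are not separate from the form difference of Tet3. Uhrf1 by itself also did not overlap between the forms. The log2 ratio of Dnmt3l to Dnmt3a plus Dnmt3b was -2.77 to -1.88 in form 1 and -4.46 to -2.46 in form 2 (exact p = 0.0857, adjusted p = 0.171). Between ICSI and control lines the 4 ratios had exact permutation p-values of 0.714 to 0.971.

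**Figure D3:**
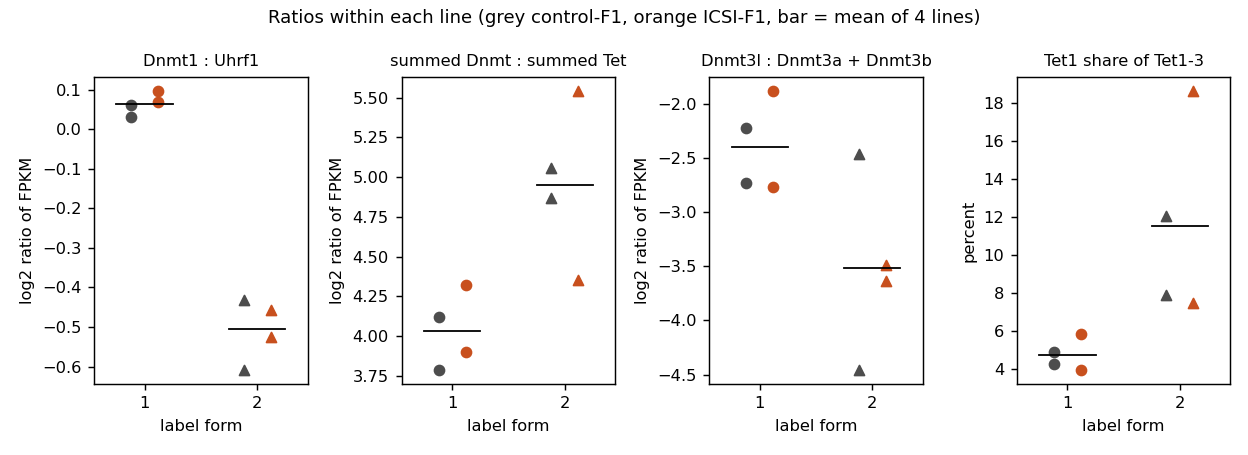
Ratios within each GS cell line by label form: log2 ratios of FPKM in the first 3 panels and the Tet1 share of summed Tet FPKM in percent in the last, with grey control-F1 points, orange ICSI-F1 points and bars for means of 4 lines. The Dnmt1 to Uhrf1 ratio lay between 0.030 and 0.096 in form 1 and between -0.61 and -0.43 in form 2. Both ICSI lines lay above both control lines in form 1, whereas the ICSI lines lay between the control lines in form 2.

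The surrounding pathway was examined in a list of 54 genes, grouped by role, of which 50 were tested. Between ICSI and control lines, limma called 0 of the 50, and 0 had an unadjusted p under 0.05, with 24 higher and 26 lower and a median log2 change of -0.026. Between forms, 4 were called higher and 6 lower, 20% against 16.0% of all genes, with a median of -0.0056. Of 8 maintenance partners, 1 was higher and 1 lower in form 2. The gene with the largest difference was Dppa3, which protects the maternal genome from demethylation and can displace Uhrf1 from chromatin, at 2.29 ± 0.537 FPKM (SD, n = 4) in form 1 and 0.726 ± 0.383 FPKM in form 2 (log2 difference -0.94 ± 0.19, adjusted p = 0.0204). Cdca7, which works with the remodeller Hells, was at 108 ± 8.002 and 151 ± 9.96 FPKM (0.48 ± 0.081, adjusted p = 0.0129).

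Of 8 tested partners of de novo methylation, 1 was higher and 1 lower in form 2, namely the H3K4 demethylase Kdm1b (30.7 ± 2.74 against 44.7 ± 4.00 FPKM, adjusted p = 0.0149) and the H3K36 methyltransferase Nsd1 (20.4 ± 3.42 against 13.8 ± 1.66 FPKM, adjusted p = 0.0330, limma). Among genes of TET function and cofactor supply, Ogt, a glycosyltransferase that binds Tet proteins, was lower in form 2 (29.6 ± 4.50 against 16.3 ± 3.03 FPKM, log2 difference -0.83 ± 0.15, adjusted p = 0.0161). The CXXC-domain gene Cxxc5 (adjusted p = 0.0333) and Idh1 (adjusted p = 0.0316), an enzyme that makes the Tet co-substrate 2-oxoglutarate, were higher, so that 3 of the 5 genes tested in this role passed. In base excision repair, 1 of 13 genes passed, the ligase Lig3 (25.8 ± 1.45 against 20.9 ± 1.66 FPKM, adjusted p = 0.0480). In methyl donor supply, Mat2a, the catalytic subunit for S-adenosylmethionine synthesis, was lower in form 2 (59.6 ± 6.25 against 44.6 ± 6.34 FPKM, adjusted p = 0.0481). None of the 6 tested readers of methylated DNA passed, and the reader with the smallest p between ICSI and control was Mbd1, at 9.22 ± 1.69 and 10.8 ± 2.37 FPKM (n = 4 each, limma unadjusted p = 0.266). Trdmt1, formerly named Dnmt2, a tRNA methyltransferase, was at 4.14 ± 0.455 FPKM in ICSI and 4.16 ± 0.753 FPKM in control lines.

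**Figure D4:**
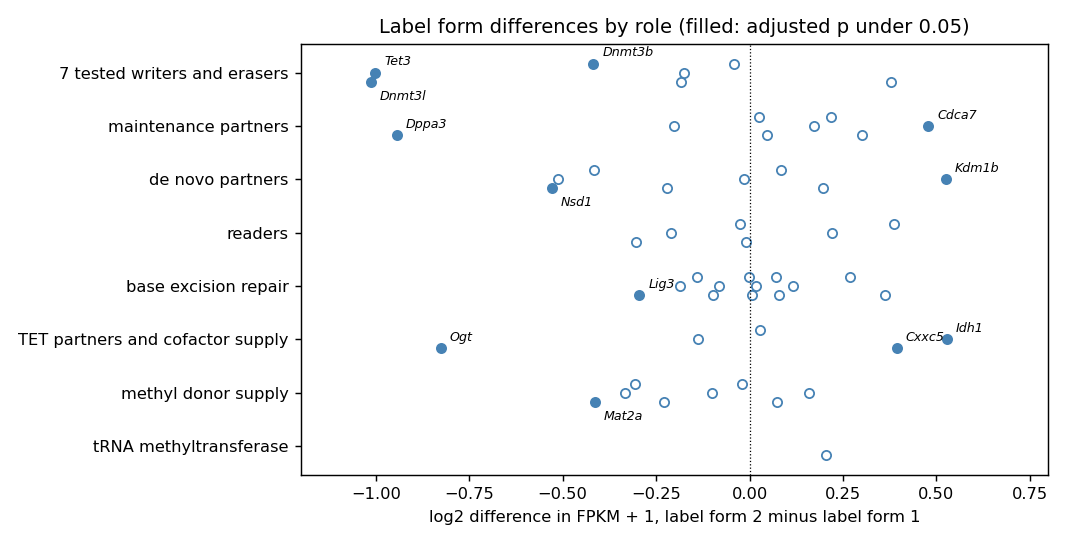
Log2 difference in FPKM + 1 between label forms (form 2 minus form 1) for the tested writers and erasers and for other genes of the pathway, by role, with filled points where the limma adjusted p was under 0.05. Filled points lie on both sides of 0, from -1.01 for Dnmt3l to 0.53 for Idh1 and Kdm1b.

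The genes whose pattern over the 8 lines was most like that of each writer or eraser, after the mean of each form was subtracted, were ranked by Pearson's r among genes that averaged 5 FPKM or more. With 8 lines that share libraries and depth, these values are a description of the lines. For Dnmt1 the closest were Dis3 (r = 0.978), Baz1b and Arhgap10, and for Uhrf1 they were Nsf (0.964), Sec24c and Nup160. Dnmt3a was followed by Crebbp (0.980), Grsf1 and Zc3hav1l, Dnmt3b by Efna4 (0.975), Wdfy1 and Rnd2, and Dnmt3l by Cd68 (0.947), Blvra and Mis12. For Tet3 the closest were Gtpbp6 (0.987), Kdm4b and Rad9b, for Tdg Gabpb2 (0.992), Rbm39 and Epn2, for Tet1 9130401M01Rik (0.944), Nup133 and Rhd, and for Tet2 Sccpdh (0.960), Sumf2 and Ctag2l2.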

How the data were processed

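RNA-seq was performed by the authors on 8 GS cell lines with single reads, which were trimmed with cutadapt (3.4 for label form 1 and 1.16 for form 2, per the labels), mapped to mm10 with STAR (2.7.9a and 2.6.0c) and counted per gene with HTSeq (0.13.5 and 0.11.2). The deposited values were FPKM, scaled between samples by the authors, and the table also held the fold change and adjusted p of their own DESeq2 comparison (1.30.1 and 1.22.2), which were not used. The study's methods give only the versions named here for form 1. The labels and the methods name different library kits, so strandedness is uncertain. Exons of Dnmt3a, Dnmt3l, Tet2 and Tdg overlap a gene on the other strand.

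Reads were recovered from FPKM steps and GENCODE M21 exon lengths and were whole within 0.02 for 23943 of 23964 genes above 0 (99.9%). A count of 0 would allow 3 reads, and depth limits cover counting error only. limma 3.58.1 in R 4.3.3 (lmFit, eBayes with trend) was run on log2(FPKM + 1), two-sided, for the 12000 genes that averaged 1 FPKM or more, with Benjamini-Hochberg adjustment over all of them and a threshold of 0.05. A pseudocount of 1 understates changes of low genes. A linear model was used instead of DESeq2 because the deposited unit is FPKM. Single genes and ratios were tested by exact two-sided permutation over 70 assignments of the lines (smallest p 0.0286), and levels of genes by 256 sign patterns. Form was fitted with group as covariate. The pipeline was tested on simulated data. The genes named were the 9 chosen, the gene of each role with the largest passing difference (otherwise the smallest p by group), the 3 most alike genes and the most abundant markers. Cdca7, Kdm1b, Cxxc5 and Idh1 were named after their values were seen. Sycp1, Kit, Cyp17a1, Mki67 and Dnmt3c also fall outside that rule. The members and lists were chosen with earlier results of these data known. Alternatives were other pseudocounts, filters, scalings and covariates, limma-voom on reads and leaving out each line. Of the genes listed for the pathway, 53 of 54 had a row in the table, and 1 of them is counted but not reported here.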

Additional observations from a re-analysis of the deposited data

How the results depend on the processing

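Tet1, Tet2 and Dnmt3l had the fewest reads (as few as 94 in a library), and Dnmt3l, Tet3 and Tet2 varied most between lines (coefficients of variation of 56.0%, 46.1% and 43.4%). No paired analysis was possible because the groups share no line numbers. The ICSI comparison was not refitted with the interaction while leaving lines out. limma-voom with 10 reads in 4 libraries, alone or with form as covariate, and levels per principal transcript were added after the data were seen. Between ICSI and control, 0 genes were called under every setting, with 7869 to 16084 genes tested, except in the fit without a filter, which called 1 of 23964. None of the 9 genes was called under any setting. Of the recomputed ICSI changes of single members, 110 kept their direction and 18 changed sign, none of them called. The sign changed for Uhrf1 with the fibroblast covariate (-0.0073), for Tet2 with form as covariate (-0.022) and without a filter (-0.014), and for Tet3 with quantile normalization (0.015) and TPM (0.00039). Leaving out a line gave -0.015 to 0.18 for Dnmt1, -0.13 to 0.12 for Uhrf1, -0.029 to 0.25 for Dnmt3b, -0.24 to 0.33 for Dnmt3l, -0.26 to 0.32 for Tet3 and -0.16 to 0.020 for Tdg.

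Between forms, limma called 1917 genes (16.0%), against 3319 with the fibroblast covariate (27.7%) and 1255 without a filter (5.24%). Leaving out a line, it called 210 to 2691 (1.75% to 22.4%). Of the genes called, 64.0% were higher in form 2, against 51.2% (1019 of 1991) after quantile normalization, where Dnmt3b, Dnmt3l and Tet3 were still the members called. Members called numbered 3, against 1 without a filter (Tet2) and 0 to 3 leaving out a line. Uhrf1 was called as well without the group term, where 20.9% of all genes were called, and with the fibroblast covariate (27.7%). limma-voom on the genes tested called Dnmt3l and Tet3 but not Dnmt3b (adjusted p = 0.0502). For Dnmt3a, leaving out a line gave -0.086 to 0.0088. Permuting within groups, where the smallest p is 0.0556, the Dnmt1 to Uhrf1 ratio (-0.57), the Dnmt to Tet ratio (0.92) and the Tet1 share (6.76 percentage points) had that p. Leaving out a line, the form differences of these were -0.59 to -0.53, 0.72 to 1.12 and 4.39 to 8.10, and that of Dnmt3l to Dnmt3a plus Dnmt3b was -1.46 to -0.80. The ICSI differences were -0.090 to 0.14, -0.27 to 0.28, -1.53 to 3.36 and -0.47 to 0.27. The order of levels kept 7 to 8 of its 8 neighbouring pairs leaving out a line and 5 in form 1 alone. The cause of these changes was not tested.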
